A study of Oryza sativa with 16 samples.

Results

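Of the 37849 annotated genes of the rice reference, 106 genes without a symbol had exon reads in the roots of one genotype and in no library of the other. These were 57 genes read in IR64 only and 49 genes read in N22 only. A gene was taken when its exon reads reached at least 1 CPM (the count scaled to a library of 1000000 exon reads) in all 4 root libraries of one genotype, and when it had 0 exon reads in all 8 libraries of the other. The contrast between IR64 and N22 chose these genes, so it is described here without a test.

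The study sequenced roots and shoots of IR64, a semi-dwarf lowland indica variety, and Nagina 22 (N22), a tall drought-tolerant upland aus variety. The seedlings had optimal nitrogen and water (N+W+), a nitrogen deficit alone (N-W+), a water deficit alone (N+W-) or a deficit of both (N-W-). Each of the 16 libraries is 1 combination of genotype, tissue and treatment, made from RNA of several plants mixed in equal amounts, and has no replicate. Where 4 values follow each other below, they are in this treatment order. The labels give an age of 15 days for N+W+ and N-W+ and of 21 days for N+W- and N-W-, with water stress from day 15 to day 21. They also state NH4NO3 at 0.4 mM as the nitrogen stress in the growth protocol but 0.04 mM in the N-W+ descriptions, 0.08 mM otherwise, and 10 ml in place of 100 ml of water. The study's methods give 1 age for all plants and other doses, so groups are called by treatment here, and water supply cannot be told apart from age if the labels are right about age.

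Rice varieties differ in which genes they carry, in gene sequence and in which genes they transcribe, and families of receptor kinases, F-box proteins and resistance-type receptors, many of them arranged in clusters, are known to vary between varieties. Reads of both genotypes were mapped to the genome of Nipponbare, a japonica variety, so a gene missing from a genome, a gene too unlike the reference to be matched and a gene that is not transcribed all give 0 reads and cannot be told apart in these counts. The files give no function for the 106 genes, and the descriptions in the study's tables cover 8 of them, each as a hypothetical protein or a protein of unknown function. The genes are named by their RAP-DB identifiers. Positions are those of the files on the IRGSP-1.0 build.

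Exon reads per root library ranged from 9131747 to 13675454 in IR64 and from 8272195 to 12136733 in N22. In shoots the range was 5663426 to 11379518 for IR64 and 2420338 to 9101488 for N22. The shallowest library was N22 shoot N-W+. At these depths 0 reads in the 4 N22 root libraries allow a level of up to 0.0742 CPM, and 0 reads in the 4 IR64 root libraries allow up to 0.0686 CPM, by counting error alone. The tissues carried the markers of their labels: the silicon transporter LSI1 was at 203 to 648 CPM in roots and 4.41 to 20.7 CPM in shoots, and the light-harvesting gene CAB1R was at 1.4 to 34.1 CPM in roots and at least 7896 CPM in shoots. The iron-responsive root gene OsRMC, chosen as a further root marker, was down to 0.165 CPM in some root libraries, so it did not mark every root sample.

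Genes read in one genotype only were few in either variety. They made up 0.445% of the 12802 unnamed genes that reached the floor of 1 CPM in all IR64 roots and 0.386% of the 12692 that did so in N22 roots. Among genes with a symbol the same thresholds held for 7 of 6418 in IR64 (0.109%) and for 6 of 6267 in N22 (0.0957%). Had the faintest member read in IR64 only been at its IR64 level in N22, the N22 root libraries would have given about 55 reads of it, and the median member 174. The corresponding values for genes read in N22 only were 62 and 201 reads in the IR64 roots. The floor of the rule and the depth of the libraries keep such values from being small, so they describe depth and are no test.

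**Figure D1:**
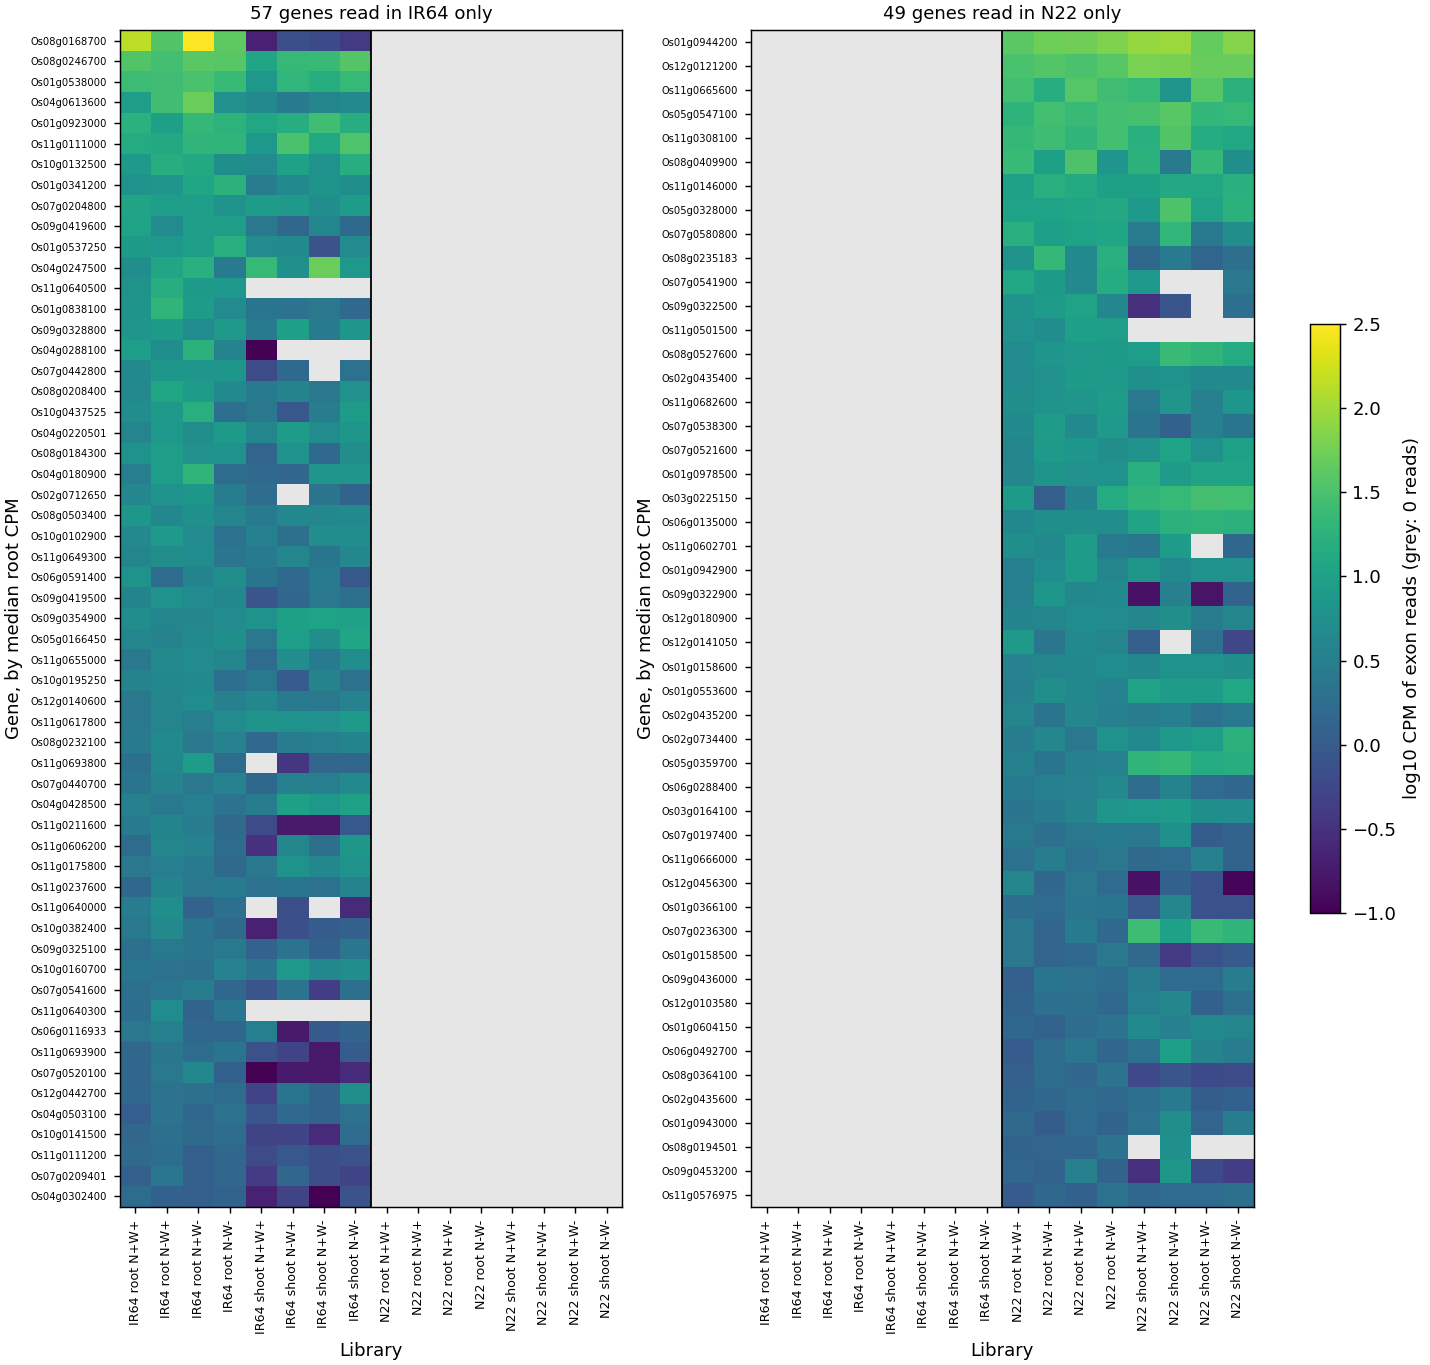
CPM of exon reads on a log10 colour scale for the 57 genes read in IR64 only (left) and the 49 read in N22 only (right) in all 16 libraries, with 1 row per gene ordered by median root CPM and grey for 0 reads. The grey sides are the 8 libraries of the other genotype that the rule required to be at 0, and the grey cells inside the coloured sides are shoot libraries without reads.

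The brightest gene read in IR64 only was Os08g0168700 on chromosome 8 (4018025 to 4020079, plus strand, 2 exons). It had 1305, 484, 3266 and 445 exon reads in the IR64 root libraries, and 2, 4, 7 and 3 reads in the corresponding shoots. It was thus a root gene of IR64, with a pooled level of 126 CPM in roots and 0.468 CPM in shoots. Its median root RPKM (the files' level per kb of exon and per depth of the library) was 24.6, the highest of all members, and against the floor of 3 counts over the N22 roots its pooled root level was at least 1694.4-fold higher. Although the gene model has an intron, none of its 5516 exon reads was counted as spliced, and 924 reads lay in the intron.

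Os08g0246700, a gene of 1 exon on the same chromosome (8966304 to 8966798, plus strand), was nearly as high at a median of 22.7 RPKM. It had 322, 392, 411 and 417 root reads and 107, 126, 260 and 282 shoot reads. Its root libraries were close to each other, and it was read in both tissues. Os04g0613600 on chromosome 4 (31105989 to 31107921, plus strand, 6 exons) had 80, 368, 544 and 62 root reads and a median of 8.11 RPKM. Its root reads were uneven, and only 37.3% of its reads had a single place in the genome.

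Os01g0923000 on chromosome 1 (40371950 to 40372684, plus strand, 1 exon) followed with a median of 7.8 RPKM and 156, 134, 221 and 194 root reads. Os01g0538000, Os11g0111000, Os09g0419600, Os09g0354900, Os04g0288100 and Os10g0195250 completed the 10 genes with the highest root levels in IR64, at medians of 4.47, 3.46, 3.42, 3.26, 3.23 and 2.85 RPKM. Their root values spread over a narrow range in some cases, as in Os01g0538000 (4.23 to 5.24 RPKM), and over a wider one in others, as in Os04g0288100 (1.8 to 6.51 RPKM). Os11g0111000 lies at 532998 to 534481 of chromosome 11, near the end of the short arm, which shares a recent duplication with chromosome 12, but all of its 1367 reads mapped to a single place.

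In N22 the highest gene was Os11g0665600 on chromosome 11 (26831964 to 26832713, minus strand, 2 exons), with 283, 185, 364 and 218 root reads, 153, 16, 257 and 162 shoot reads and a median of 10.9 RPKM in roots. The most reads of any gene in N22 only were those of Os01g0944200 on chromosome 1 (41510192 to 41519672, plus strand, 6 exons). It had 419, 656, 538 and 555 root reads and 595, 226, 307 and 660 shoot reads, with a median of 7.22 RPKM in roots. It was well read in both tissues and in each treatment, 594 of its reads crossed a splice junction, and its pooled root level was at least 782-fold over the IR64 floor.

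Os08g0235183, a short gene of 1 exon on chromosome 8 (8207064 to 8207447, plus strand), had 66, 257, 44 and 133 root reads and 10, 7, 9 and 18 shoot reads, so both low-nitrogen root libraries were above both others. Its median root level was 7.95 RPKM. Os11g0146000 had 105, 193, 132 and 80 root reads (5.81 RPKM) and Os05g0328000 had 112, 131, 111 and 106 (5.52 RPKM). Each of these was read uniquely, whereas Os12g0121200, at a median of 5.32 RPKM with 329, 445, 306 and 325 root reads, had no uniquely mapped read at all among its 2736.

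The remaining genes among the 10 highest in N22 were Os03g0225150, Os05g0547100, Os11g0602701 and Os08g0409900 at medians of 4.03, 3.67, 2.84 and 2.51 RPKM. Os05g0547100 (chromosome 5, 27150614 to 27153702, plus strand, 4 exons) was read evenly, with 189, 340, 229 and 237 reads in roots and 204, 94, 134 and 202 in shoots. Os03g0225150 and Os11g0602701 had no uniquely mapped read, and both lie wholly within a gene on the opposite strand that was read in both genotypes.

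The levels of the members were mostly low. The median of their root RPKM was 0.938 in IR64 and 0.888 in N22, where all unnamed genes at the same floor had medians of 2.41 and 2.18. All 106 were annotated as protein-coding, as were 12612 of the 12802 and 12501 of the 12692 unnamed genes at the floor. Models of 1 exon made up 19 of the 57 genes in IR64 (33.3%) and 20 of the 49 in N22 (40.8%), against 22.8% and 23.3% of the unnamed genes at the floor. The median exon length was 1272 bases in IR64 members and 1788 in N22 members, with 1542 and 1538 in the respective backgrounds.

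Spliced reads were counted for most genes with introns. Of the 29 genes with introns read in N22 only, 28 had spliced reads (96.6%), beside 92.5% of the unnamed genes with introns at the N22 floor. Of the 38 such genes read in IR64 only, 28 had spliced reads (73.7%), beside 94% in the background. The 10 without a spliced read included Os08g0168700, Os04g0288100 (83, 69, 182 and 39 root reads) and Os11g0640300, and no test was made of this difference. In IR64, 4 genes had more intron than exon reads, and in N22 there was 1. Os10g0382400 had 3232 intron reads beside 152 exon reads, and Os08g0184300 had 981 beside 414.

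Most members were read at a single place. Over 95% of the reads were unique in 47 of 57 genes in IR64 (82.5%) and in 40 of 49 in N22 (81.6%), compared with 74.6% and 74.3% of the background. Under 50% of the reads were unique in 7 genes in IR64 and 8 in N22. The members with the smallest unique share in IR64 were Os02g0712650 (0%), Os06g0116933 (1.3%) and Os10g0102900 (5.57%). In N22, besides Os03g0225150, Os11g0602701 and Os12g0121200, Os01g0943000 had no unique read. Of the members under 50% unique, 2 in IR64 and 6 in N22 overlap an annotated gene. Os12g0121200 lies wholly within Os12g0121150 on the opposite strand, which had 0 root reads in either genotype. For these genes the counts could have been split with another copy or with an overlapping gene, and their level is uncertain.

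An annotated gene overlapped 4 of the members in IR64 (7.02%) and 9 in N22 (18.4%), beside 26.9% and 27.3% of the backgrounds. Os02g0712650 lies within Os02g0712600 on the opposite strand, which had 407 to 738 reads in IR64 roots and 437 to 1036 in N22 roots. Os03g0225150 lies within the MAP kinase kinase gene MPKK10.2, which had 1458 to 3251 reads in N22 roots and 1320 to 3426 in IR64 roots. The sources used here do not say that strand was used in counting, so reads of such a pair cannot be told apart. When the members with an overlap or with 95% or less unique reads are set aside, 47 genes in IR64 and 38 in N22 are left, a choice made after the values had been seen.

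Positions differed between chromosomes. Chromosome 11 held 14 of the 57 genes read in IR64 only, which is 2.27% of its 618 unnamed genes at the floor, and 8 of the 49 read in N22 only, 1.34% of its 596. Both shares were above those of every other chromosome in the same genotype. In IR64 chromosome 10 followed with 7 genes (1.08%), and then chromosomes 8 (0.742%), 9 (0.739%) and 4 (0.694%, 8 genes). Chromosomes 4 and 10 held no gene read in N22 only. Chromosome 3 had none in IR64 and 2 in N22, although it carries 1728 and 1754 unnamed genes at the floor. These shares are descriptions, and neighbouring genes are not independent.

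**Figure D2:**
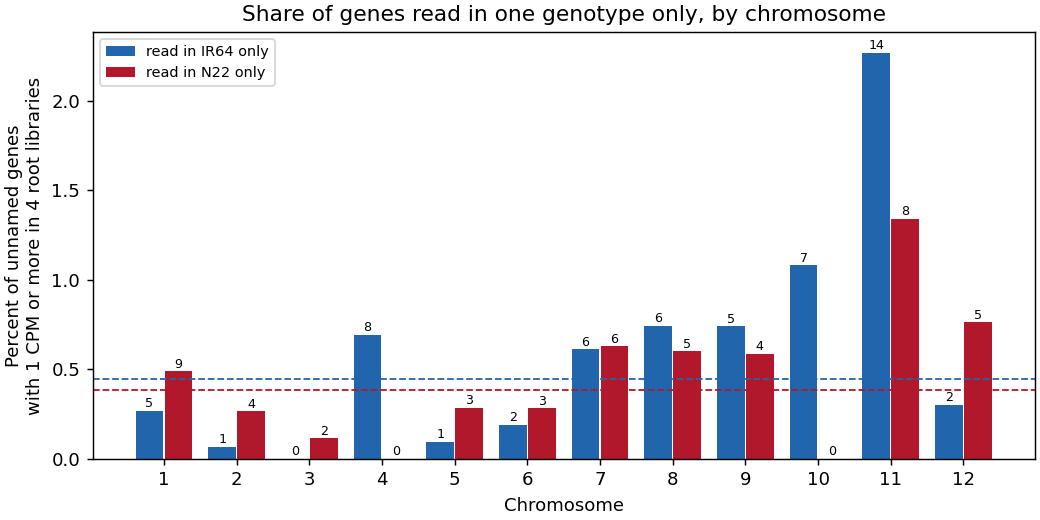
Percent of the unnamed genes with at least 1 CPM in all 4 root libraries of a genotype that were read in that genotype only, for each of the 12 chromosomes, with the number of genes above each bar and the genome-wide share as a dashed line. Chromosome 11 is highest in both genotypes, at 2.27% in IR64 and 1.34% in N22.

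Some members stood side by side, with no other annotated gene between them. In IR64, 9 of the 57 genes formed 4 such runs, and in N22, 5 of the 49 formed 2. The longest run in IR64 was that of Os11g0640000, Os11g0640300 and Os11g0640500 on chromosome 11, over 19.5 kb from 25316103 to 25335627. Their root reads were 28, 74, 13 and 20, then 17, 69, 14 and 25, and then 56, 206, 83 and 78, each highest under N-W+. This is not particular to the run. As CPM, N-W+ was the highest root library for 47.4% of all genes read in IR64 only and for 34.1% of the unnamed genes at the floor. All 3 genes of the run were root genes: Os11g0640300 and Os11g0640500 had 0 reads in the 4 IR64 shoot libraries and Os11g0640000 had 6 in all. Os11g0640500 was thereby at least 110-fold higher in roots than in shoots, and Os11g0640300 at least 32.5-fold, counted against 3 reads over the 4 shoot libraries.

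The other runs in IR64 were pairs. Os09g0419500 and Os09g0419600 lie within 4.84 kb on chromosome 9 (15090663 to 15095507), with 35, 87, 50 and 45 and with 97, 66, 96 and 93 root reads. Os11g0693800 and Os11g0693900 lie within 12.4 kb on chromosome 11 (28335198 to 28347618), the first with only 36.8% unique reads. Os01g0537250 and Os01g0538000 are adjacent in the annotation but span 137 kb on chromosome 1 (19549155 to 19686310), with 74, 101, 91 and 167 and with 226, 369, 325 and 241 root reads. The ranges of root RPKM overlapped within the chromosome 11 pair (0.386 to 1.43 for Os11g0693800 and 0.645 to 1.2 for Os11g0693900) and within the chromosome 1 pair (2.04 to 4.85 for Os01g0537250 and 4.23 to 5.24 for Os01g0538000).

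In N22, Os02g0435200, Os02g0435400 and Os02g0435600 lie within 14.8 kb on chromosome 2 (13855869 to 13870657), with 41, 27, 40 and 28, with 51, 72, 77 and 64, and with 14, 18, 17 and 13 root reads. The nearest other genes on both sides of this trio were read in IR64 roots. Os01g0942900 and Os01g0943000 lie within 13.1 kb on chromosome 1 (41439358 to 41452427), and only 2.21% and 0% of their reads were unique. Os01g0944200 starts further along at 41510192, and the named gene OsBAT5 (41564014 to 41566629), which met the same thresholds, lies beyond it with 45, 25, 90 and 22 root reads. Along this stretch of chromosome 1, Os01g0944200 and OsBAT5 thus had exon reads in N22 and none in IR64. The same held for the pair Os01g0942900 and Os01g0943000, but their few unique reads leave their place uncertain.

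Genes of both directions also lay close together. Os12g0140600, read in IR64 only, and Os12g0141050, read in N22 only, were 16 kb apart on chromosome 12 with 2 genes between them. Os07g0541600 in IR64 and Os07g0541900 in N22 were 20.9 kb apart on chromosome 7 with 3 genes between. Within each of these pairs the N22 gene had few unique reads, 0.472% for Os12g0141050 and 3.28% for Os07g0541900. Both IR64 genes were read uniquely. Os12g0141050 lies wholly within Os12g0141000 on the opposite strand, which had 221 to 619 reads in N22 roots and 47 to 250 in IR64 roots. Os07g0542067, also on the opposite strand, overlaps 95.9% of Os07g0541900 and had 0 to 139 reads in N22 roots and 0 in IR64 roots. Reads of such overlapping genes cannot be told apart, so the N22 side of both pairs is uncertain.

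The neighbours were not chosen by their values and could be tested. The nearest gene on each side that was no member gave 103 genes around those read in IR64 only and 90 around those read in N22 only. IR64 and N22 roots were compared over the 4 treatments with edgeR's quasi-likelihood test and Benjamini-Hochberg adjustment, in which the pooled libraries of the 4 treatments stand in for replicates. Of the 49 tested neighbours in IR64, 10 were higher in IR64 (20.4%) and 5 were higher in N22 (10.2%). Of the 41 tested in N22, 11 were higher in N22 (26.8%) and 6 in IR64 (14.6%). Over all 22284 genes tested, 6.95% were higher in IR64 and 6.68% higher in N22, so the shares around the members were above the background in both directions. These shares were not tested against the background, and those against the genotype of the member rest on only 5 and 6 genes. Of the neighbours higher in the genotype of the member, 9 in IR64 and 9 in N22 did not overlap it. Without the root library of N22 under N-W+, 7 in place of 11 passed around the genes read in N22 only.

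The neighbours that were high in the same genotype included some nearly as one-sided as the members. Os10g0382600, 2967 bases from Os10g0382400, had 360, 691, 436 and 468 reads in IR64 roots against 0, 0, 0 and 1 in N22 roots (adjusted p = 3.5e-05). Os01g0341000, beside Os01g0341200, had 360, 347, 390 and 523 against 2, 0, 0 and 0 (adjusted p = 6.3e-05). Around N22 genes, Os05g0546800 had 389, 401, 326 and 315 reads in N22 roots and 0 in each IR64 root library (adjusted p = 0.000355), and it missed the member list by 1 read in the other genotype. None of these libraries overlapped between the genotypes.

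A neighbour with a known family was OsEXO70FX4, which encodes a subunit of the exocyst, the complex that tethers secretory vesicles at the plasma membrane. Beside Os08g0232100 on chromosome 8, it had 288, 199, 436 and 313 reads in IR64 roots against 15, 2, 7 and 4 in N22 roots, a log2 difference of 5.41 ± 0.33 (SE, adjusted p = 9.1e-05). Os11g0501000, beside the N22 gene Os11g0501500, had 361, 412, 326 and 346 reads in N22 roots against 4, 4, 6 and 3 in IR64 roots, a log2 difference of 6.53 ± 0.28 (SE, adjusted p = 3.3e-05). Os08g0246800, 2216 bases from Os08g0246700, differed less, with 262 to 442 reads in IR64 and 72 to 100 in N22 (log2 difference 1.95 ± 0.18, SE, adjusted p = 0.000607).

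Other neighbours went against the member beside them. Os08g0184600, next to the IR64 gene Os08g0184300, had 4, 8, 3 and 2 reads in IR64 roots against 374, 526, 463 and 389 in N22 roots (log2 difference -6.86 ± 0.30, SE, adjusted p = 3.5e-05). Os06g0116900, next to the IR64 gene Os06g0116933, had 1 to 4 reads in IR64 and 79 to 204 in N22 (log2 difference -5.74 ± 0.36, SE, adjusted p = 0.000114). At each of these places the member and the gene beside it had most of their exon reads in opposite genotypes. Only 1.3% of the reads of Os06g0116933 were unique, so its place is uncertain. Os08g0184300 had 9 intron reads in N22, beside 981 in IR64.

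On chromosome 6 the N22 gene Os06g0288400 (10482499 to 10485489, minus strand) lies between a pair of sugar-transferring enzymes. It had 29, 39, 34 and 37 reads in N22 roots and 12, 9, 11 and 14 in N22 shoots. On one side OsCGT, a C-glucosyltransferase of flavonoids, had 90, 72, 59 and 53 reads in N22 roots against 599, 567, 763 and 483 in IR64 roots, a log2 difference of N22 minus IR64 of -2.99 ± 0.20 (SE, adjusted p = 0.000141). On the other, UGT_6, of the UDP-glycosyltransferase family, had 112, 88, 97 and 45 against 228, 324, 352 and 197 (-1.57 ± 0.18, SE, adjusted p = 0.00181). In IR64 roots both enzyme genes were higher, and the gene between them was at 0.

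**Figure D3:**
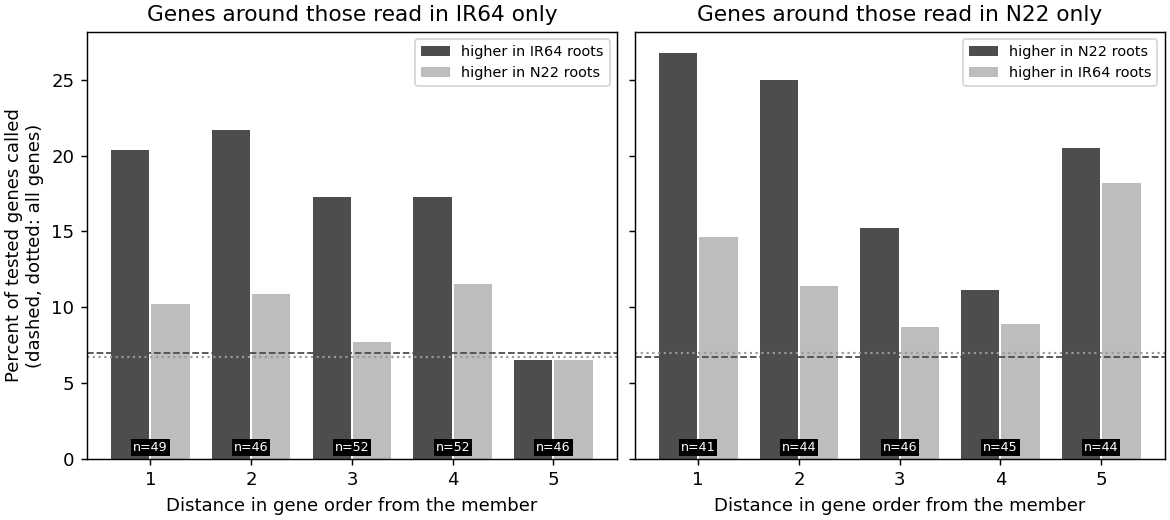
Percent of tested genes called higher in IR64 or in N22 roots (edgeR, adjusted p under 0.05) at distances of 1 to 5 genes from members read in IR64 only (left) and in N22 only (right), with the number tested in the boxes and the share over all genes as dashed and dotted lines. At 1 gene away 20.4% and 26.8% were higher in the genotype of the member, above 6.95% and 6.68% over all genes.

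The shares changed with distance, which was followed to 5 genes after the nearest values had been seen. Around genes read in IR64 only, 21.7% of tested genes were higher in IR64 at the second place, 17.3% at the third and the fourth, and 6.52% at the fifth. Around genes read in N22 only, 25% were higher in N22 at the second place, 15.2% at the third, 11.1% at the fourth and 20.5% at the fifth. There was no steady fall in N22, and at the fifth place 18.2% were higher in IR64. At the second place next to Os11g0666000, the receptor-like cytoplasmic kinase gene OsRLCK345 was at a median of 152 CPM in N22 roots and 1.31 CPM in IR64 roots (log2 difference 6.88 ± 0.52, SE, adjusted p = 0.000508).

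Some neighbours had no reads in the other genotype either. In N22, 22 of the 103 genes beside IR64 members had 0 reads in all 8 libraries (21.4%), where 10.6% of all genes did. In IR64, 21 of the 90 genes beside N22 members had 0 reads (23.3%), where 10.1% of all genes did. Among these, 9 and 6 had no read in any of the 16 libraries, which leaves 13 neighbours in IR64 (12.6%, beside 4.19% of all genes) and 15 in N22 (16.7%, beside 3.69%) that were read in the genotype of the member alone. Conversely, some members had both nearest genes at a median of at least 1 CPM in the roots of the other genotype. These were 8 members in IR64 and 9 in N22, and no share over all genes was taken for this. Of them, Os02g0712650, Os03g0225150 and Os12g0141050 lie wholly within a nearest gene. The others stood as single unread genes or short runs between read ones, with Os04g0288100, Os04g0302400, Os04g0613600, Os08g0409900 and Os07g0580800 among them.

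Root and shoot levels were compared within the genotype that read the gene. In IR64 the 4 root libraries were above the 4 shoot libraries in 20 of 57 genes (35.1%), beside 28.1% of the unnamed genes at the same floor, and the 4 shoot libraries were above the 4 root libraries in 2 (3.51%), beside 8.89%. In N22 the counts were 8 of 49 higher in roots (16.3%), beside 20.5%, and 9 higher in shoots (18.4%), beside 14.4%. The floor was set on roots, which favours root genes in members and background alike. At least 1 CPM in all 4 shoot libraries was reached by 32 genes in IR64 (56.1%) and 37 in N22 (75.5%), against 77.1% and 81.3% of the backgrounds.

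Among the genes of roots, Os04g0288100 had 1, 0, 0 and 0 shoot reads, and Os07g0520100, with 13, 34, 44 and 13 root reads, had 1, 1, 2 and 2 in shoots. In N22 the clearest was Os11g0501500 (chromosome 11, 17856680 to 17858107, minus strand), with 61, 63, 90 and 75 root reads and none in shoots, a difference of at least 59.3-fold. The shoot side was led by Os07g0236300, which had 26, 17, 26 and 13 root reads and 177, 24, 149 and 176 shoot reads, though only 2.63% of them were unique. Os05g0359700, read uniquely, had 36, 28, 33 and 29 root reads and 133, 52, 92 and 139 shoot reads, so its shoots were above its roots in every treatment as CPM.

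**Figure D4:**
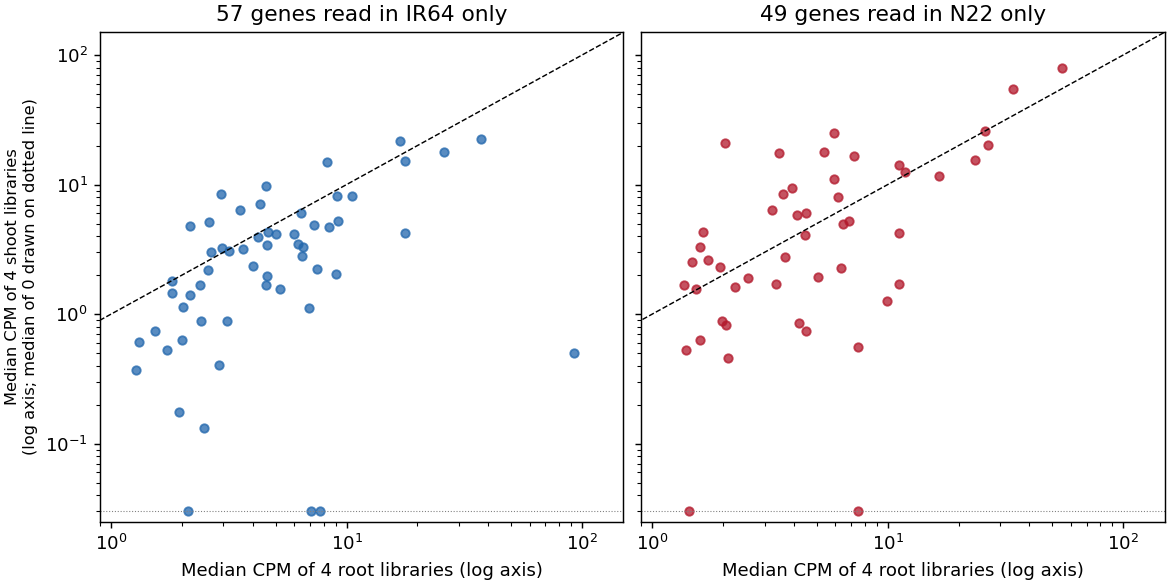
Median CPM of the 4 shoot libraries against the median CPM of the 4 root libraries, both on log axes, for the 57 genes read in IR64 only (left) and the 49 read in N22 only (right), with the line of equal levels dashed and medians of 0 drawn on the dotted line. The point at the far right in IR64 is Os08g0168700, and the genes near the dotted line are those hardly read in shoots.

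The study asked how low nitrogen and low water act on the transcriptome, and the members were followed through the 4 treatments in the genotype that read them. No member passed edgeR's quasi-likelihood test with Benjamini-Hochberg adjustment for nitrogen or water in roots or shoots of either genotype. The background was 0% of all genes tested except for nitrogen in IR64 shoots, where 6.27% of 25026 genes passed. At an unadjusted p under 0.05 nitrogen had 2 members in IR64 roots (3.51%, beside 6.44% of all genes tested) and 8 in its shoots (14%, beside 24%). In N22 it had 2 in roots (4.08%, beside 5.84%) and 5 in shoots (10.2%, beside 14.9%), so each share was below that of all genes. Water had 4 in N22 shoots (8.16%, beside 4.32%) and 0 in N22 roots, IR64 roots and IR64 shoots, where 0.761%, 1.9% and 3.03% of all genes were under it. All genes tested were not matched to the members in level, so these shares do not show whether the members responded less or more. For nitrogen, DESeq2 called 1 member in the roots of IR64 (1.75%, beside 1.4% of all genes), 1 in its shoots (1.75%, beside 12.6%) and 2 in the shoots of N22 (4.08%, beside 6.44%), and 0 in the roots of N22 (beside 1.29%). For water it called 0 members, beside 0.044% of all genes in roots and 0.0999% in shoots of IR64, and 0.0123% and 0.0617% in those of N22.

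Os08g0168700 moved most in IR64 roots. Its levels were 143 CPM (N+W+) and 315 CPM (N+W-) at high nitrogen, and 35.4 CPM (N-W+) and 42.2 CPM (N-W-) at low nitrogen. Both high-nitrogen libraries were above both low-nitrogen ones, and the groups did not overlap. The fitted log2 difference of low minus high nitrogen was -2.42 ± 0.47 (SE) with an adjusted p of 0.259 by edgeR and 7.9e-05 by DESeq2. In edgeR with library totals in place of TMM the adjusted p was 0.0322, so the call depended on the tool and on the scaling. Over the other alternatives run it was 0.0584 to 0.309.

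Os04g0247500 in IR64 shoots had 22.4 and 49.5 CPM at high nitrogen and 5.65 and 7.44 CPM at low nitrogen. Its log2 difference for nitrogen in shoots was -3.09 ± 0.80 (SE, adjusted p = 0.0806 by edgeR and 0.00376 by DESeq2). In IR64 roots the same gene had 5.15, 11.4, 16.9 and 2.65 CPM, where the nitrogen groups overlapped. No member passed the test of a root response unlike the shoot response, run in edgeR alone, for which the background for nitrogen was 2.31% in IR64 and 0% in N22 and for water 0% in both. At an unadjusted p under 0.05 there were 0 members in IR64, where 16.9% of all genes were under it for nitrogen and 1.63% for water. In N22 there were 3 for nitrogen (6.12%, beside 10.4%) and 1 for water (2.04%, beside 2.76%).

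In N22 the genes called by DESeq2 were Os08g0409900 and Os11g0665600. Os08g0409900 had 17.9 and 21.3 CPM in the high-nitrogen shoots and 2.89 and 5.6 CPM in the low-nitrogen ones (log2 -2.68 ± 0.51, SE, adjusted p = 0.154 by edgeR and 0.00295 by DESeq2). Its roots went the same way, with 23 and 33.1 CPM at high nitrogen and 9.89 and 6.65 CPM at low nitrogen. Os11g0665600 had 22.4 and 39.3 CPM at high and 6.61 and 17.8 CPM at low nitrogen in shoots (log2 -1.90 ± 0.42, SE, adjusted p = 0.177 by edgeR and 0.0182 by DESeq2). In the shallowest library, N22 shoot N-W+, these genes had 7 and 16 reads, and in N-W- they had 51 and 162. Without N-W+ the log2 differences were -2.23 and -1.45.

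**Figure D5:**
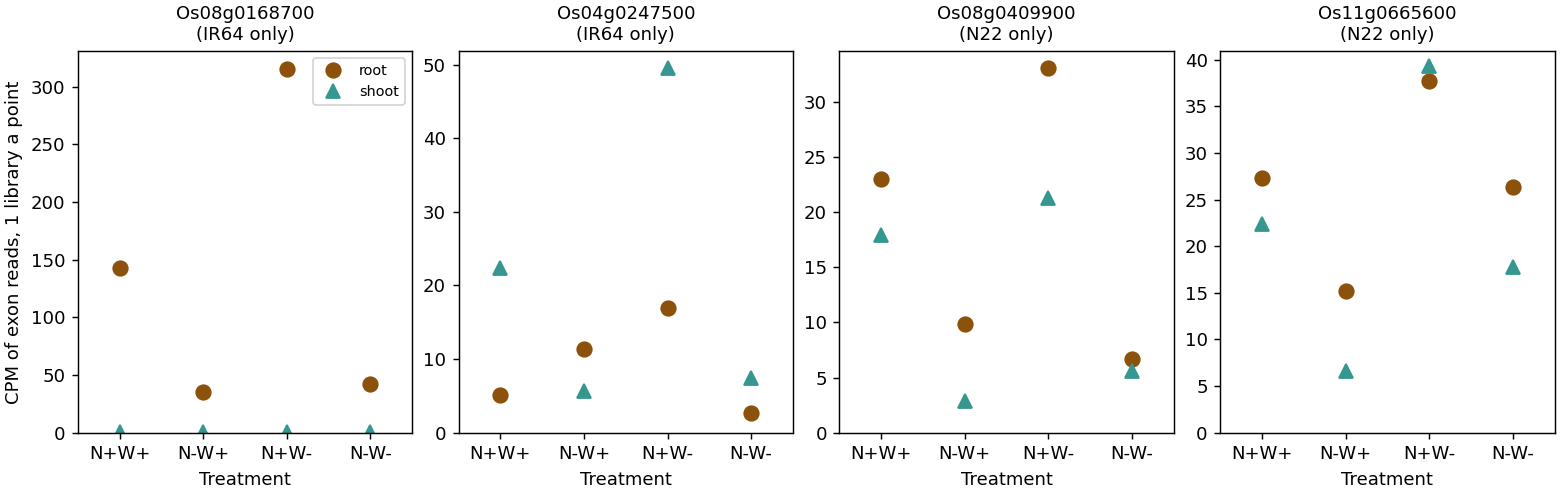
CPM of exon reads in the 4 treatments for Os08g0168700 and Os04g0247500 in IR64 and for Os08g0409900 and Os11g0665600 in N22, with circles for roots and triangles for shoots and 1 library per point, so that there are no error bars. In Os08g0168700 roots the high-nitrogen points are at 143 and 315 CPM and the low-nitrogen points at 35.4 and 42.2 CPM.

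Os08g0235183 in N22 roots was higher at low nitrogen without passing either tool. It had 21.2 and 16.1 CPM at low nitrogen and 6.36 and 4.56 CPM at high nitrogen (log2 1.80 ± 0.41, SE, edgeR adjusted p = 0.541). Os08g0194501 in N22 was read in 1 shoot library only, the shallowest, with 14 reads under N-W+ and 0 in the other 3, N-W- included. Its roots had 14, 17, 14 and 18 reads, and as CPM its nitrogen groups overlapped in both tissues. In roots the members did not share one direction: the median log2 difference for nitrogen was 0.10 in IR64 roots and 0.11 in N22 roots, with 30 of 57 and 31 of 49 genes above 0. In IR64 shoots 27 genes were above 0 and 27 below. In N22 shoots 16 were above 0 and 32 below, with a median of -0.18. No share over all genes was taken for these directions.

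The named genes that met the same thresholds included receptor kinases and F-box genes in both genotypes. In IR64 the wall-associated kinase gene OsWAK105 had 559, 347, 144 and 902 root reads and 0 in every shoot library, and another such kinase gene, OsiWAK1, had 114, 206, 294 and 32 root reads. OsiWAK1 (28120864 to 28121925) and the receptor-like cytoplasmic kinase gene OsRLCK353 (28142192 to 28148337) lie on chromosome 11 ahead of the Os11g0693800 pair. SLB1, a cytochrome P450 gene of strigolactone synthesis, had 73, 131, 417 and 112 root reads in IR64. OsCML25, of the calmodulin-like family, had 179, 93, 201 and 84, Os9bglu29, a beta-glucosidase gene, had 24, 40, 77 and 14, and OsFbox639 had 59, 267, 124 and 112. In this IR64 set all but OsFbox639 had at most 12 reads in any IR64 shoot library. The floor was set on roots, which favours root genes, and no share over all named genes was taken.

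In N22 the receptor-like kinase gene LRK1 had 56, 199, 62 and 91 root reads. The F-box genes OsFbox075 and OsFbox328 had 41, 54, 48 and 54 and 59, 150, 90 and 79 root reads, and OsAGP26, which encodes an arabinogalactan protein of the cell surface, had 104, 43, 98 and 35. DERF12 had 39, 49, 31 and 57 root reads and 100, 45, 288 and 290 shoot reads. The named genes of N22 other than OsBAT5 were read in all 4 N22 shoot libraries, and in IR64 OsFbox639 and OsRLCK353 were read in all 4 of its own.

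Genes just inside and just outside the thresholds were close in value. In IR64 the members nearest the floor were Os04g0503100, with a lowest root level of 1.1 CPM, and Os04g0302400 and Os07g0209401, at 1.16 CPM, while Os10g0580001 at 0.99 CPM and Os11g0678301 and Os06g0318533 at 0.95 CPM stood just outside. In N22 Os06g0492700 and Os11g0576975 at 1.06 CPM and Os01g0943000 at 1.07 CPM were inside, and Os01g0967600 and Os01g0158566 at 0.96 CPM and Os08g0263400 at 0.91 CPM outside. A single read in the other genotype kept out 33 unnamed genes in IR64 and 25 in N22. The highest of these were Os07g0121500 in IR64, with 292 to 602 root reads, Os11g0616900 with 149 to 497 and Os11g0685400 with 135 to 413, and in N22 Os11g0206000 with 532 to 973, Os05g0546800 with 315 to 401 and Os06g0271500 with 148 to 329.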

How the data were processed

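Poly(A) RNA libraries were paired-end Illumina libraries mapped by the authors to IRGSP-1.0 in the CLC Genomics Workbench v.12 after quality trimming (mismatch cost 2, length fraction 0.5, similarity fraction 0.8). CASAVA is named in the submitters' processing notes. The authors deposited counts of whole reads per gene (exon, unique exon, whole gene, intron and spliced) without normalization. The authors also deposited RPKM values, scaled to exon length and to the mapped fragments. The TPM values deposited by the authors were not used.

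Total exon reads were the main input, and CPM used their library sum. Nitrogen and water were fitted within each genotype with 2 residual degrees of freedom, and genotype in roots with 3, by edgeR 4.0.16 (quasi-likelihood, TMM, filter on low counts, Benjamini-Hochberg at 0.05) in R 4.3.3 and by DESeq2 1.42.0 as an alternative. In these fits main effects replace replicates, so p-values also carry the nitrogen-by-water interaction. The fits for nitrogen in roots were tested on simulated data. The SE printed with an edgeR log2 difference is the size of that difference divided by the square root of its F statistic. It was derived from the test and is not a separately fitted standard error. Folds against 0 reads used 3 counts over the group. Depth limits precision by counting error only. Tables were made in Python 3.11 with pandas 2.3.3 and numpy 2.4.6, and figures with matplotlib 3.10.9.

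The members and lists were chosen with earlier results of these data known. Named genes were, in each direction, the 10 members with the highest median root RPKM, members in runs, members nearest to and just outside the thresholds, those with the most intron reads in the other genotype or the lowest unique share, and genes with a symbol meeting the thresholds. Other members and neighbours were named after their values were seen. Descriptions in the study's tables covered 6 of 57 and 2 of 49 members, so a count of annotation words is void.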

Additional observations from a re-analysis of the deposited data

Results flagged for a closer look

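The rule on exon reads left intron reads aside, and 25 of the 106 members had at least 1 intron read in the genotype that had no exon read. In 8 of them the sum over the 8 libraries was above the 3 reads that a count of 0 allows. Os10g0382400, read in IR64 only, had 87 intron reads in N22, spread over all 8 libraries with 3 to 19 in each, beside 3232 in IR64. Os11g0617800 had 36 in N22 and 94 in IR64, and the N22 reads were mainly in shoots. Os09g0322900 and Os09g0453200, read in N22 only, had 24 and 15 intron reads in IR64, beside 32 and 39 in N22. Os10g0102900 had 9 in N22, all of them in the N-W- shoots, and Os08g0184300 also had 9, over 4 libraries. Os01g0838100 had 8 and Os11g0175800 had 4. None of the 8 overlaps another annotated gene, and for them 0 exon reads does not mean that the locus gave no read in the other genotype. With 0 reads required over the whole gene in the other genotype, 42 members were left in IR64 and 39 in N22. The source of these intron reads was not tested.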

How the results depend on the processing

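The number of members read in IR64 only went from 57 to 33 with a floor of 2 CPM, 13 with 5 CPM, 125 with up to 3 reads allowed in the other genotype and 105 with 0 reads required in the other roots alone. In N22 it went from 49 to 76 with a floor of 0.5 CPM, 11 with 5 CPM, 97 and 82. Without 1 library it was 57 to 68 in IR64 and 49 to 59 in N22. Members in runs went from 5 to 11 in N22 when members within 50 kb were joined. Neighbours higher in the genotype of the member were 6 and 5 with at least 5 CPM in 4 libraries, 19 and 19 with the nearest 2 genes on each side, and 9 to 12 in IR64 and 7 to 15 in N22 without 1 library, the 7 being without N22 root N-W+. Members called for nitrogen in IR64 roots were 1 with DESeq2 and 1 with library totals (Os08g0168700 in both) and 0 to 1 without 1 library (Os04g0613600 without N+W+). In IR64 shoots they were 1 with DESeq2 and 1 with unique reads (Os04g0247500, lower at low nitrogen in both), 1 with library totals (Os11g0111000, higher at low nitrogen), and 0 to 0 without 1 library. In N22 shoots they were 2 with DESeq2 and 0 to 2 without 1 library, the 2 being without N+W- or without N-W-. For Os04g0613600 the nitrogen difference in IR64 roots was 1.32 without N+W- or without N-W- and ranged from -2.85 to 1.32 without 1 library. All water calls and nitrogen calls in N22 roots stayed at 0 in the alternatives run. The cause of these changes was not tested. Shares over all genes were taken for the main fits and for the DESeq2 calls of nitrogen and water only. The counts of members and neighbours under the other settings therefore have no background beside them and say nothing particular to these genes. Replicates could not be paired because each group has 1 library. The comparison of genotypes had treatment as a term, which matched IR64 and N22 roots by treatment. Depth limits 0 reads to the levels given above.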

Other observations

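When the floor was set on the 4 shoot libraries in place of the roots, 46 unnamed genes were read in IR64 only and 51 in N22 only. Of these, 32 and 37 were members by the root floor, and 14 in each genotype were met by the shoot floor alone. The highest in N22 was Os12g0222300 on chromosome 12, with 548, 21, 197 and 195 shoot reads and 2, 2, 5 and 1 root reads. Os02g0590200 had 9, 6, 15 and 23 shoot reads in N22 and none in N22 roots. In IR64 Os06g0582600 had 488, 12, 73 and 47 shoot reads and 1, 0, 1 and 0 root reads, and Os12g0555400 had 105, 32, 124 and 69 shoot reads and at most 6 in a root library. These are shoot genes of a single genotype that the root floor leaves out. Os01g0944100, with 101, 36, 62 and 161 shoot reads in N22, lies at 41495711 to 41504742 on chromosome 1, just ahead of Os01g0944200.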
